A study of Rattus norvegicus with 8 samples.

Results

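The genes described here are 8 transcription factors of the neuronal injury response in rat dorsal root ganglion cultures: Atf3, Jun, Sox11, Smad1, Klf4, Klf6, Crem and Myc. They were taken as every non-control array probe whose RefSeq accession belongs to 1 of these genes, which gave 12 of 30367 probes and 8 of 15154 named genes. Crem had 5 probes and each other gene had 1. All 12 probes passed the filter on dim probes, since each was well above background on all 8 arrays, and 0 of their spots were saturated. Ganglia of Wistar rat pups of both sexes, 0 to 5 days old, were pooled and dissociated, and the cells were kept in serum-free medium with the mitotic inhibitors 5-fluoro-2'-deoxyuridine and uridine. After 2 to 3 days in vitro 100 ng/ml of a human protein was added for a further 5 days. The groups were the double mutant P61S/R100E (3 arrays), the single mutant P61S (3 arrays) and the wild-type protein, WT (2 arrays). All of these cultures received a form of the protein, and no culture without it was analysed here. Nothing in the labels ties the replicates to separate cultures or animals, and the p-values therefore cover only the spread among these samples, which may be technical.

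When the axon of a sensory neuron is cut, signals carried back to the cell body switch on a set of transcription factors that change the neuron's gene expression toward survival and regrowth. Atf3 and Jun bind DNA as partners of the bZIP class and are among the most widely used marks of injured sensory neurons. Sox11, Smad1, Klf6 and Myc are known to favour axon growth, whereas Klf4 is known to hold it back in central neurons of rodents, and Crem encodes activators and repressors of genes that respond to cyclic AMP. The arrays read RNA of neurons and non-neuronal cells together, so more cells of a type and more RNA per cell cannot be told apart.

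Values are log2 signals relative to the 75th percentile of the signals on the array, so 0 is a probe at that percentile and a difference of 1 is a doubling. The level of one probe cannot be set against that of another. The 75th percentile signals lay between 3267 and 5269, 78.7% to 88.8% of an array's spots were well above background, and precision is limited by the number of arrays. All 8 arrays were on 1 slide and had 1 scan time. Pairs of arrays were compared over 5930 bright probes with 2 spots that were well above background on all arrays. There the arrays of P61S replicates 1 and 3 differed by a robust SD of 0.0449, less than the 0.0557 that the scatter of duplicate spots gives. The other 27 pairs of arrays differed by 0.120 to 0.265, where duplicate spots give 0.0506 to 0.0649. At these bright probes P61S replicates 1 and 3 therefore differed by less than the measurement noise, and their mean was counted as 1 sample. This leaves n = 3 for P61S/R100E, n = 2 for P61S and n = 2 for WT. The 2 arrays were not alike in every value: 85.9% and 78.7% of their spots were well above background, and the macrophage marker Cd68 read -1.21 and 0.64. Over all probes their highest correlations with any array were 0.9921 and 0.9878, so replicate 1 correlated best with an array other than replicate 3. WT replicate 2 stood apart, at 0.20 to 0.265 from the other arrays. WT replicate 1 lay closer to each P61S/R100E array (0.120 to 0.181) and each P61S array (0.121 to 0.126) than to WT replicate 2 (0.226). Both WT arrays were in slide column 4, which held no other group, so that column and WT cannot be told apart.

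None of the 8 genes passed the test in any comparison. At an adjusted p of 0.05 (Benjamini-Hochberg, over 23585 tested probes), limma called 0% of probes between P61S/R100E and P61S (smallest adjusted p = 0.484), 0% between P61S/R100E and WT (0.067) and 0% between P61S and WT (0.104). The largest difference of any of the 8 was 0.38 (log2), a 1.30-fold difference, for Myc between P61S/R100E and P61S. The clearest separation by sample was that of Atf3, which was higher on each P61S/R100E array than on each P61S and WT array.

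**Figure D1:**
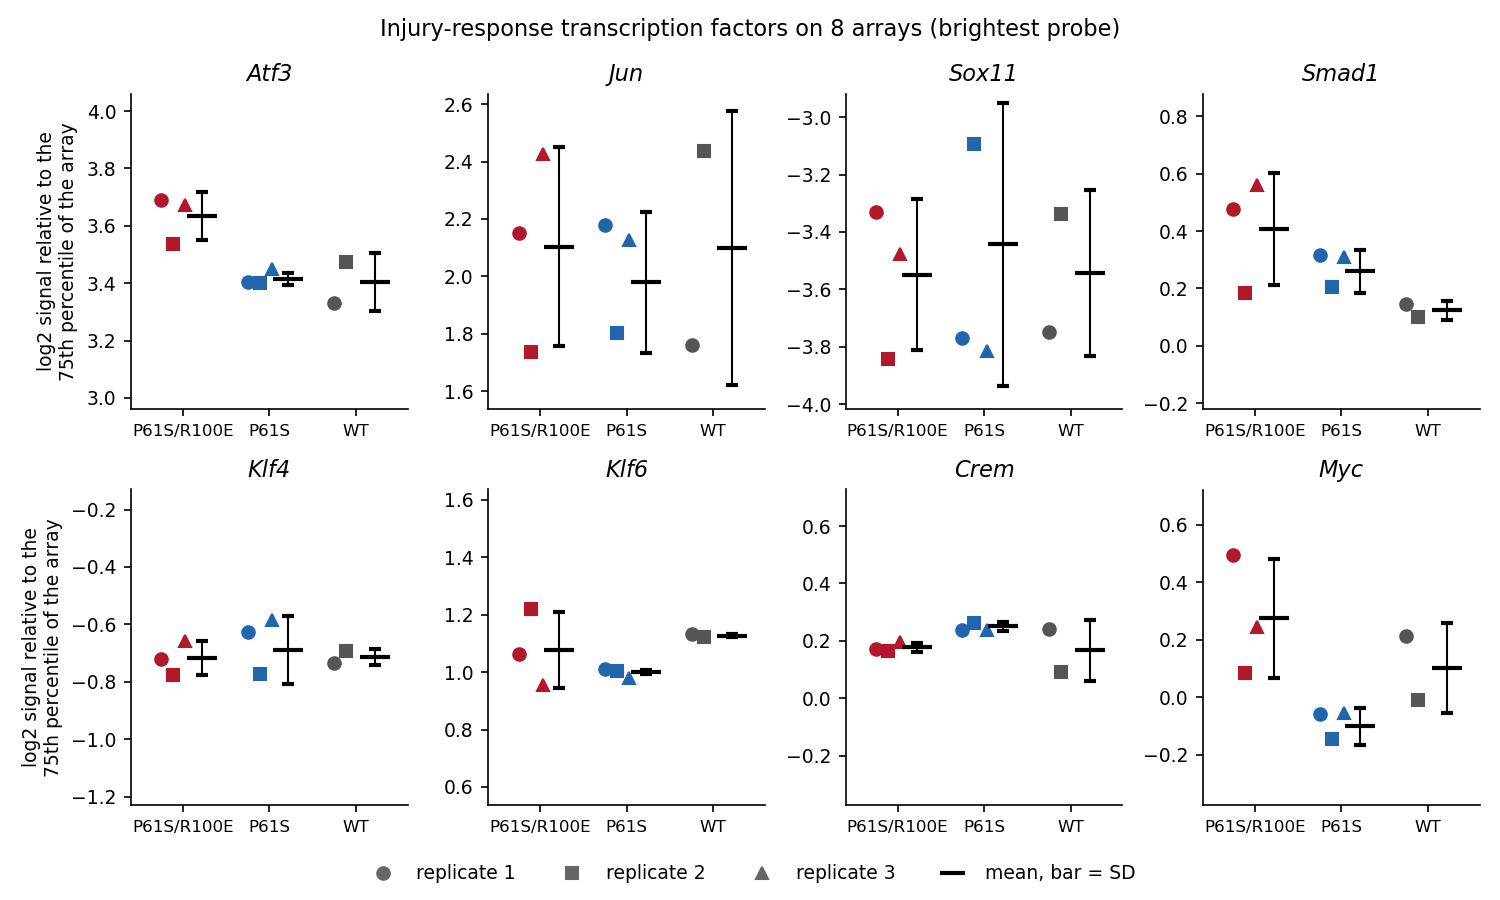
Log2 signal relative to the 75th percentile of the array for the brightest probe of each gene, with 1 point per array (replicate by shape) and the group mean with its SD beside the points (P61S replicates 1 and 3 counted once). Each panel spans the same log2 range: Atf3 sits between 3.54 and 3.69 on the P61S/R100E arrays and between 3.33 and 3.48 on all others, while Jun and Sox11 spread widely within every group.

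Atf3 encodes activating transcription factor 3, which is nearly silent in intact sensory neurons and strongly induced after axon injury. Its probe (A_43_P11616) read 3.69, 3.54 and 3.67 with P61S/R100E. It read 3.41, 3.40 and 3.45 with P61S, and 3.33 and 3.48 with WT. The P61S/R100E arrays were thus the 3 highest of the 8, and the P61S and WT arrays overlapped. The means were 3.63 ± 0.08 with P61S/R100E (SD, n = 3), 3.41 ± 0.02 with P61S and 3.40 ± 0.10 with WT (SD, n = 2 each), so the order was P61S/R100E, P61S, WT, with P61S and WT within their spread.

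Atf3 differed by 0.22 between P61S/R100E and P61S (95% interval -0.04 to 0.48), or 1.16-fold, and by 0.23 between P61S/R100E and WT (-0.03 to 0.49), or 1.17-fold. The adjusted p of limma was 1.00 and 0.859 for these comparisons, and the unadjusted p was 0.0880 and 0.0767. With each of the 8 arrays as a separate sample the unadjusted p was 0.0359 and 0.0420, and neither passed after adjustment. Against the mean of P61S and WT, a comparison that shares all its samples with the others, Atf3 differed by 0.22 (SE 0.0905) and was the 1 gene of the 8 with an unadjusted p under 0.05. The limma adjusted p was 0.917 and the unadjusted p 0.0469. As samples were left out in turn the difference ran from 0.19 to 0.27, and the unadjusted p was under 0.05 in 3 of 9 fits and 0.134 at most. Among all 12146 tested genes 1.57% were higher at that threshold, and limma called 0% of probes. Within slide row 1 the difference from P61S was 0.29 and within row 2 it was 0.15. The 2 arrays of slide column 2, 1 of each mutant, differed by 0.14. Between P61S and WT the difference was 0.01 (interval -0.28 to 0.30).

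Jun encodes c-Jun, a core subunit of the AP-1 complex that the kinase JNK activates after axon injury. Its probe (A_64_P053353) read 2.15, 1.74 and 2.42 with P61S/R100E. It read 2.18, 1.80 and 2.13 with P61S, and 1.76 and 2.44 with WT. Each group held both a low array near 1.8 and arrays above 2.1, and the groups overlapped throughout. Both arrays of slide column 2 (P61S/R100E replicate 2 and P61S replicate 2) were among the low ones, as was WT replicate 1 in column 4, and slide position could be fitted only as a row block or a column covariate. The difference of Jun between P61S/R100E and P61S was 0.003 with the row block and -0.07 with the column covariate.

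The means of Jun were 2.10 ± 0.35 with P61S/R100E (SD, n = 3), 1.98 ± 0.25 with P61S and 2.10 ± 0.48 with WT (SD, n = 2 each). No neighbours in that order differed beyond their spread. The difference was 0.13 between P61S/R100E and P61S (interval -0.57 to 0.82) and 0.005 between P61S/R100E and WT (-0.69 to 0.70). It was -0.12 between P61S and WT (-0.88 to 0.64). The spread within groups, a residual SD of 0.36, was larger than that of 86% of tested genes. Leaving out P61S replicate 2 turned the first difference to -0.05. Leaving out WT replicate 2 moved the difference between P61S/R100E and WT to 0.34, and leaving out WT replicate 1 moved it to -0.33.

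Crem encodes the cyclic AMP response element modulator. The gene is known to be read from more than 1 start, and an internal start that cyclic AMP switches on gives the repressor ICER, which lacks the activation domain. The RefSeq promoter table (build GRCr8, 250 bases before to 50 after each start) held 7 promoters of 5 of the 8 genes: 3 of Crem and 1 each of Klf4, Klf6, Sox11 and Smad1. The full cyclic AMP response element TGACGTCA, searched on both strands, was present in 2 of these 7, both of Crem, and in 1.83% of all 33469 promoters. The sequences of these 2 starts are shown because they differ from the other 5 in carrying the element, with it in capitals.
Crem start 2, chr17:58984547-58984846, plus strand: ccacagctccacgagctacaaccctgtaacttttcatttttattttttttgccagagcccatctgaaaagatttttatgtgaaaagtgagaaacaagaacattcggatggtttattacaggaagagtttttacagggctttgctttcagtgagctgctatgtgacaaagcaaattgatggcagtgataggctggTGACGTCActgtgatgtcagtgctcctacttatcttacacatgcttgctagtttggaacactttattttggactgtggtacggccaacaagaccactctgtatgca
Crem start 3, chr17:58985240-58985539, plus strand: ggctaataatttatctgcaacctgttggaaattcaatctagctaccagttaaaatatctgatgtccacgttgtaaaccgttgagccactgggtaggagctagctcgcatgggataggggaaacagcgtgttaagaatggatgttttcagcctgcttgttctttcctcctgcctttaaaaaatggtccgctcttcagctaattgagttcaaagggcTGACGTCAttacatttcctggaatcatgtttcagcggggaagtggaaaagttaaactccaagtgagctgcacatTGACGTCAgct

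The element began 56 bases before start 2, and 35 bases before and 40 bases after start 3. A pair of full elements in 1 promoter occurred in 14 of 33469 promoters (0.0418%). The core TGACG, which lies within the full element, was also present at Crem start 1 and in the Smad1 promoter, and in 21.2% of all promoters. The AP-1 site TGANTCA was in none of the 7 promoters, and 7.33% of all promoters hold it. The short box CACCC, bound by Krüppel-like factors, was found in the Sox11 promoter and at Crem start 1, and in 54.9% of all promoters. A match describes letters in a window of 300 bases, not a bound site.

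The 5 Crem probes did not move together. The brightest (A_64_P042283) read 0.17, 0.16 and 0.20 with P61S/R100E, 0.24, 0.26 and 0.24 with P61S, and 0.24 and 0.09 with WT. All P61S/R100E arrays were below all P61S arrays, by a difference of -0.07 (interval -0.32 to 0.17, unadjusted p = 0.492), and the P61S/R100E arrays lay between the WT arrays. The second brightest (A_64_P042278) varied by 0.11 over the 7 samples, and its differences between groups were 0.03 or less in size. Their residual SD was smaller than that of most genes: 4.87% of tested genes were steadier than the first and 5.17% than the second.

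The 3 dimmer Crem probes went in different directions. Probe A_44_P988767 was higher with P61S/R100E than with P61S (difference 0.23, interval -0.10 to 0.57), at -3.01, -3.25 and -3.23 with P61S/R100E and -3.33, -3.46 and -3.33 with P61S. Probe A_64_P126493 was lower with P61S/R100E than with WT (difference -0.19, interval -0.46 to 0.09), as was A_43_P11922 (difference -0.19, interval -0.49 to 0.10). Probe A_64_P126493 read -1.56, -1.70 and -1.77 with P61S/R100E and -1.54 and -1.45 with WT, and A_43_P11922 read -4.89, -5.04 and -5.00 with P61S/R100E and -4.80 and -4.77 with WT. The 3 P61S arrays of A_43_P11922 also lay below both WT arrays (difference -0.14, unadjusted p = 0.329). The 3 separations of P61S/R100E had no overlap between the groups, and none had a limma unadjusted p under 0.05 (0.138, 0.147 and 0.155). Such separation was common. Of all tested genes, by brightest probe, 8.32% were higher without overlap between P61S/R100E and P61S. In the same way 8.74% were lower between P61S/R100E and WT, and 11% between P61S and WT. Which transcripts of Crem each probe reads was not worked out here.

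**Figure D2:**
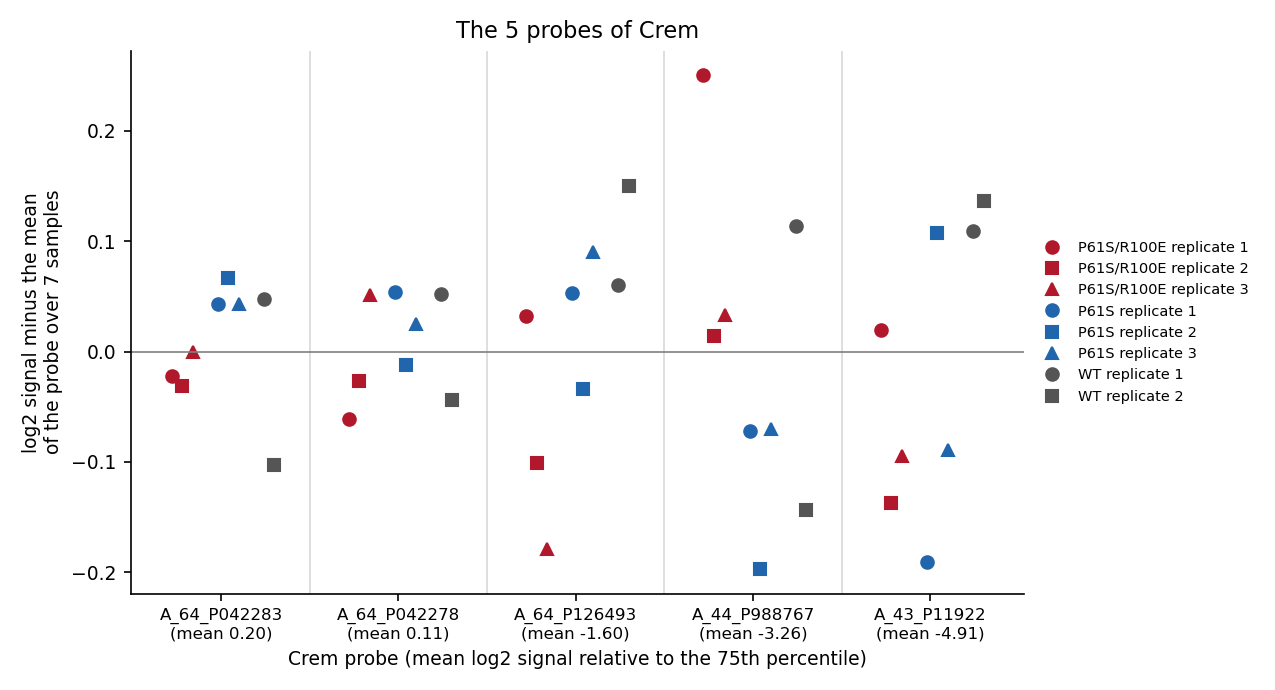
Log2 signal of each of the 5 Crem probes on every array, minus that probe's mean over the 7 samples, with colour for the group and shape for the replicate. The P61S/R100E arrays are below the P61S arrays at the brightest probe (difference -0.07) and above them at A_44_P988767 (difference 0.23).

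Sox11 encodes an SRY-related factor that is abundant in developing neurons and returns after injury. Its probe (A_64_P073944) read -3.33, -3.84 and -3.48 with P61S/R100E. It read -3.77, -3.09 and -3.82 with P61S, and -3.75 and -3.34 with WT. The highest value, on P61S replicate 2, came from 2 spots that disagreed, with signals of 346 and 616, a spot SD of 0.588 against 0.0154 to 0.191 on the other arrays.

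The means of Sox11 were -3.55 ± 0.26 with P61S/R100E (SD, n = 3), -3.44 ± 0.49 with P61S and -3.54 ± 0.29 with WT (SD, n = 2 each). The groups overlapped in every comparison, and no neighbours differed beyond their spread. The difference was -0.11 between P61S/R100E and P61S (interval -0.76 to 0.55), and without P61S replicate 2 it was 0.24. It was -0.006 between P61S/R100E and WT (-0.66 to 0.65), and without WT replicate 2 it was 0.20. Between P61S and WT it was 0.10 (-0.62 to 0.82), and without P61S replicate 2 it was -0.25. With the slide column number as a covariate the difference of Sox11 was -0.75 between P61S/R100E and P61S (limma unadjusted p = 0.0369). Between P61S and WT it was 1.47 (limma unadjusted p = 0.0259), and neither passed after adjustment. WT filled slide column 4 alone, so the value against WT extends a slope taken from the mutant arrays in other columns. The 2 arrays of slide column 2 also differed by -0.75, and these included P61S replicate 2 with its disagreeing spots.

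Smad1 encodes an intracellular effector that bone morphogenetic protein (BMP) receptors phosphorylate, and it takes part in axon growth of adult sensory neurons. Its probe (A_42_P668072), printed in 10 spots per array, read 0.48, 0.19 and 0.56 with P61S/R100E. It read 0.32, 0.21 and 0.31 with P61S, and 0.15 and 0.10 with WT. Both WT arrays were below every P61S/R100E and every P61S array, and P61S/R100E and P61S overlapped. With outlier spots left out, the spots of an array had an SD of 0.0206 to 0.0659. This was smaller than the distance of 0.37 between the lowest and the highest P61S/R100E array. With its 1 outlier spot included, the 10 spots of WT replicate 2 had signals from 2315 to 3801. The spot SD does not cover error in the scaling between arrays.

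The means of Smad1 were 0.41 ± 0.20 with P61S/R100E (SD, n = 3), 0.26 ± 0.08 with P61S and 0.12 ± 0.03 with WT (SD, n = 2 each). P61S/R100E exceeded WT by 0.28 (interval -0.06 to 0.63, unadjusted p = 0.0895, adjusted p = 0.859), or 1.22-fold. P61S exceeded WT by 0.14 (-0.24 to 0.51), and P61S/R100E exceeded P61S by 0.15 (-0.20 to 0.49). The last difference was 0.07 without P61S/R100E replicate 3 and 0.26 without P61S/R100E replicate 2. Since WT filled slide column 4 alone, column and WT cannot be told apart in the comparisons with WT.

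Klf4 and Klf6 encode zinc-finger factors of the Krüppel-like family. The Klf4 probe (A_43_P12908) read -0.72, -0.77 and -0.66 with P61S/R100E. It read -0.63, -0.77 and -0.58 with P61S, and -0.73 and -0.69 with WT. The groups overlapped in all comparisons and the 3 differences were 0.03 or less in size, with intervals that reach 0.31 at most.

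The Klf6 probe (A_64_P036676) read 1.06, 1.22 and 0.95 with P61S/R100E. It read 1.01, 1.00 and 0.98 with P61S, and 1.13 and 1.12 with WT. Each P61S array was below both WT arrays, by a difference of -0.13 (interval -0.43 to 0.18, unadjusted p = 0.349), and the P61S/R100E arrays spanned both groups. The means were 1.08 ± 0.13 with P61S/R100E (SD, n = 3), 1.00 ± 0.01 with P61S and 1.13 ± 0.01 with WT (SD, n = 2 each). P61S/R100E differed from P61S by 0.08 (-0.20 to 0.36), which was 0.008 without P61S/R100E replicate 2. The Klf6 promoter (GRCr8, chr17:69458429-69458728, minus strand) was the 1 of the 7 with the E-box CACGTG, the motif that MYC binds with its partner MAX, 56 bases before the start, and 6.42% of all promoters hold it. The whole promoter is shown because it alone of the 7 carries the E-box, which is in capitals.
Klf6: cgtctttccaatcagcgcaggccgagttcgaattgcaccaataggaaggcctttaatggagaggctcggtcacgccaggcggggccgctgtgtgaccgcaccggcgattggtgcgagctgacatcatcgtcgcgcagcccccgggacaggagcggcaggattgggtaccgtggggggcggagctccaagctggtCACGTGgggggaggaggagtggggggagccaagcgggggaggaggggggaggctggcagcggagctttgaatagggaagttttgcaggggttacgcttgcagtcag

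Myc encodes c-Myc, a factor of cell growth and division that also promotes axon growth. Its probe (A_42_P493380), also printed in 10 spots per array, read 0.49, 0.08 and 0.25 with P61S/R100E. It read -0.06, -0.15 and -0.06 with P61S, and 0.21 and -0.01 with WT. The P61S arrays were the 3 lowest of the 8, and P61S/R100E and WT overlapped. With outlier spots left out the spot SD was 0.0207 to 0.0553, smaller than the spread of 0.41 among the P61S/R100E arrays. Before scaling, the Myc spots of P61S/R100E replicates 1, 2 and 3 had signals of 5009 to 5415, 5321 to 5724 and 5174 to 5393. The 75th percentiles of these arrays were 3744, 5269 and 4478, and the scaled Myc values ran in the opposite order. The spot SD does not measure error in this scaling.

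The means of Myc were 0.27 ± 0.21 with P61S/R100E (SD, n = 3), -0.10 ± 0.06 with P61S and 0.10 ± 0.16 with WT (SD, n = 2 each). P61S/R100E exceeded P61S by 0.38, or 1.30-fold, with a 95% interval of -0.0006 to 0.75 (unadjusted p = 0.0502, adjusted p = 1.00). The difference was between 0.27 and 0.47 as arrays were left out in turn, 0.48 with slide row as a block (unadjusted p = 0.0194), 0.60 within slide row 1, 0.22 within row 2 and 0.23 within slide column 2. P61S/R100E differed from WT by 0.17 (-0.20 to 0.55), by 0.06 without P61S/R100E replicate 1 and likewise without WT replicate 2, by 0.27 without P61S/R100E replicate 2 and by 0.28 without WT replicate 1. P61S differed from WT by -0.20 (-0.62 to 0.21), which was -0.09 without WT replicate 1 and -0.31 without WT replicate 2. With the column number as a covariate, a fit that reaches WT by extending a slope from the mutant arrays, the difference between P61S and WT was 0.11.

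**Figure D3:**
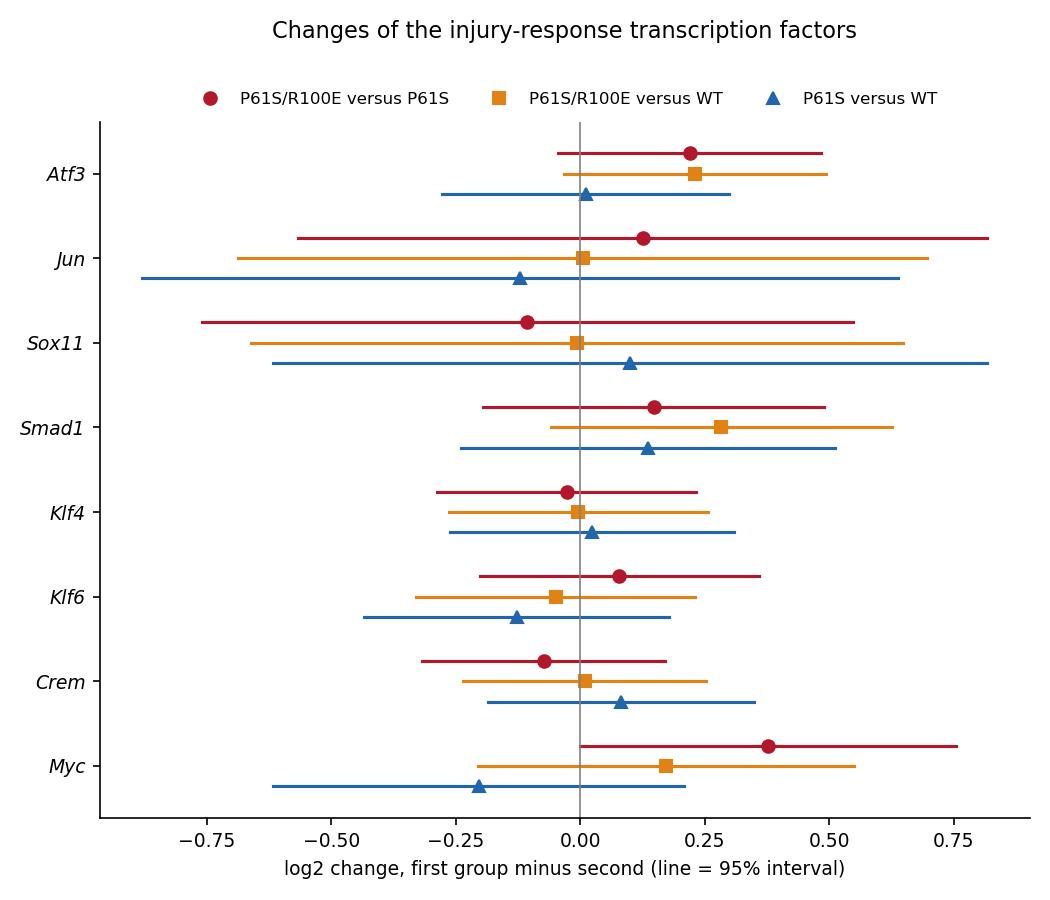
Log2 change of each gene (brightest probe) in the 3 comparisons, first group minus second, with its 95% interval from limma. All 24 intervals include 0, the lower bound for Myc between P61S/R100E and P61S is -0.0006, and the intervals of Jun and Sox11 are the widest.

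Counted together between P61S/R100E and P61S, 5 of the 8 genes were above 0 and 3 below, with a median difference of 0.10 beside -0.02 for all 12146 tested genes. Atf3 and Myc were higher and Crem was lower without overlap of the groups, where 8.32% of all tested genes were higher and 11.1% lower in that way. None of the 8 had an unadjusted p under 0.05, a threshold that 1.01% of all genes passed upward and 1.70% downward. Between P61S/R100E and WT the split was again 5 and 3, and the median was 0.007 beside -0.03 for all genes. Without WT replicate 2 the split was 6 and 2 with a median of 0.13 (all genes 0.01), and without WT replicate 1 it was 4 and 4 with a median of 0.03 (all genes -0.07). Atf3 and Smad1 were higher without overlap (7.47% of all genes higher, 8.74% lower). None had an unadjusted p under 0.05 (1.46% of all genes higher, 2.14% lower).

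Between P61S and WT, 5 of the 8 were above 0 with a median of 0.02, beside -0.02 for all genes. The count and median were 6 and 0.06 without WT replicate 2, and 3 and -0.08 without WT replicate 1. Smad1 was higher and Klf6 and Myc were lower without overlap, where 11.0% of all genes were higher and 11.0% lower. None had an unadjusted p under 0.05 (0.412% of all genes higher, 0.379% lower). The comparisons share samples, so these counts are not independent of each other. Against the mean of P61S and WT, Atf3 was the 1 gene of the 8 whose P61S/R100E samples lay above all others, where 3.36% of all genes did so.

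The genes outside the 8 with a profile over the 7 samples most like each of them were found by the smallest root mean square difference of centred log2 values, among genes that vary at least as much. For Atf3 they included Satb1, a chromatin organizer (0.0416 over 7203 genes compared). For Myc they were Cdk2, a cell cycle kinase (0.0702 over 4155 genes), and Mup4 (0.0779), and for Smad1 Upk1b (0.0557 over 5492 genes) and Tpm2 (0.0610). For Jun they were Rpgrip1l and Tdrd3 (0.0613 and 0.0690 over 2462 genes), for Sox11 Fam186b and Fut11 (0.0638 and 0.0808 over 2797 genes). For Klf4 they were Oma1 and Smim26 (0.0126 and 0.0199 over 11502 genes), for Klf6 Tm9sf2 and Rapgef2 (0.0296 and 0.0364 over 9725 genes) and for Crem Map3k6 and Hsd11b1 (0.0218 and 0.0249 over 11631 genes). With 7 samples and this many genes, such a likeness is a description of these arrays.

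Genes that act with the 8 were described by list, and 0 genes of any list passed over all probes. Single genes of a list were named only if the compared groups did not overlap, so their separation follows from the choice. Between P61S/R100E and P61S 8.32% of all tested genes were higher and 11.1% lower without overlap. Between P61S/R100E and WT the shares were 7.47% and 8.74%. Of 30 tested AP-1 and ATF/CREB partners, 1 was higher and 0 lower at an unadjusted p under 0.05 between P61S/R100E and P61S, and 0 between P61S/R100E and WT. The 1 was Cebpb, a bZIP factor of the C/EBP family (difference 0.37, SE 0.129, unadjusted p = 0.0289), which differed by 0.32 without P61S replicate 2 (unadjusted p = 0.143). Cebpb read 1.98, 1.66 and 1.73 with P61S/R100E, 1.48, 1.37 and 1.46 with P61S, and 1.65 and 1.67 with WT, so the P61S arrays were the 3 lowest. Fosl1, the AP-1 subunit Fra-1, differed by -0.25 from P61S and -0.23 from WT (unadjusted p = 0.0505 and 0.0677). It read 0.22, 0.31 and 0.28 with P61S/R100E, 0.54, 0.50 and 0.55 with P61S, and 0.43 and 0.57 with WT, so the P61S/R100E arrays were the 3 lowest.

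Of the BMP and SMAD pathway, 30 genes were tested. Grem1, a secreted BMP antagonist, had the smallest p of the list between P61S/R100E and WT (difference -0.55, SE 0.116, unadjusted p = 0.00309, adjusted p = 0.859). Grem1 read -0.57, -0.83 and -0.67 with P61S/R100E, -0.40, -0.50 and -0.43 with P61S, and -0.17 and -0.11 with WT. The 3 groups did not overlap, with P61S/R100E lowest and WT highest, and naming the gene required such a separation. Without overlap, 8.74% of all tested genes were lower between P61S/R100E and WT, and 11% between P61S and WT. Grem1 differed by -0.32 between P61S and WT (unadjusted p = 0.0466), and by -0.29 without WT replicate 2 (unadjusted p = 0.126). Between P61S/R100E and WT it was -0.52 without that array (unadjusted p = 0.0165). Smad6, an inhibitory SMAD of the BMP branch, differed by 0.28 between P61S/R100E and P61S (SE 0.111, unadjusted p = 0.0443), and by 0.26 without P61S replicate 2 (unadjusted p = 0.175). At an unadjusted p under 0.05, 1 gene was higher and 0 lower between P61S/R100E and P61S, 0 higher and 1 lower between P61S/R100E and WT, and 0 higher and 1 lower between P61S and WT. Between P61S and WT 21 of the 30 genes were below 0, with a median of -0.10, where 55.6% of all tested genes were below 0. Without WT replicate 2 the count was 17 with a median of -0.003, beside 40.8% of all tested genes.

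Of 12 tested genes of the Krüppel-like family, Klf12 was lower with P61S/R100E than with WT (difference -0.90, SE 0.369, unadjusted p = 0.0495). It read -7.02, -7.65 and -6.96 with P61S/R100E and -6.86 and -5.75 with WT, so WT replicate 2 carried most of the distance, and without it the difference was -0.35 (unadjusted p = 0.313). Of 8 tested SOX genes, Sox8 was higher with P61S/R100E than with WT (difference 0.47, SE 0.175, unadjusted p = 0.0361). Sox8 read -2.15, -2.53 and -2.09 with P61S/R100E and -2.65 and -2.79 with WT. Without WT replicate 2 the difference of Sox8 was 0.40, and its unadjusted p was 0.142 with 1 WT sample left. The MYC network had 7 tested genes. The list of kinases upstream of Jun, with scaffolds, phosphatases, Sarm1 and Mycbp2, had 18. The list of other regeneration-associated transcription factors, which also held Socs3, Ezh2, Kdm6b and Hdac5, had 19. Of these lists, 0 genes had a limma unadjusted p under 0.05 between P61S/R100E and P61S, P61S/R100E and WT, or P61S and WT. The kinase list had 13 of 18 genes below 0 both between P61S/R100E and WT (median -0.15) and between P61S and WT (median -0.15). Of all tested genes 57.1% and 55.6% were below 0 in these comparisons. The kinase counts rested on WT replicate 2. Without it 10 of 18 were below 0 between P61S/R100E and WT (median -0.02) and 4 of 18 between P61S and WT (median 0.09), beside medians of 0.01 and 0.03 for all genes. Between P61S/R100E and P61S 11 of 18 were below 0, and 7 without P61S replicate 2. Map3k13, the kinase LZK, differed by -0.26 between P61S/R100E and WT (SE 0.134, unadjusted p = 0.101). Its values were -3.45, -3.38 and -3.51 with P61S/R100E and -3.36 and -3.02 with WT, so WT replicate 2 carried most of the distance.

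Effector genes of the injury response, the peptides, receptors and growth proteins that injured neurons make, included differences above 1 (log2). Of 40 tested, 5 were higher and 7 lower at an unadjusted p under 0.05 between P61S/R100E and P61S, and 6 were higher and 5 lower between P61S/R100E and WT (4 and 5 without WT replicate 2). Between P61S/R100E and P61S the counts were 6 and 3 without P61S replicate 2, and 3 and 4 without P61S replicates 1 and 3. None passed over all probes, and 0 had such a p between P61S and WT. Among all tested genes, 1.01% were higher and 1.70% lower at that p between P61S/R100E and P61S, and 1.46% and 2.14% between P61S/R100E and WT. The list was compiled with earlier results of these arrays known, so its counts are not independent evidence. Vip, the gene of vasoactive intestinal peptide, read 1.46, 1.54 and 1.32 with P61S/R100E, -0.38, 0.10 and -0.45 with P61S, and -0.31 and -0.24 with WT. The differences of Vip were 1.60 from P61S (SE 0.175, adjusted p = 0.620) and 1.72 from WT (SE 0.175, adjusted p = 0.452). They were 3.02-fold and 3.29-fold, beside 1.16-fold and 1.17-fold for Atf3.

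Anxa3, which encodes annexin A3, differed by 0.91 from P61S and 0.99 from WT (SE 0.115 each, adjusted p = 0.763 and 0.541). Nts, the neurotensin gene, differed by -1.12 between P61S/R100E and P61S (SE 0.172, adjusted p = 0.806). Cckbr, a cholecystokinin receptor that sensory neurons express after nerve injury, differed by 1.08 between P61S/R100E and WT (SE 0.173, adjusted p = 0.758). Naming these genes required that the P61S/R100E samples lie outside the range of the compared group.

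**Figure D4:**
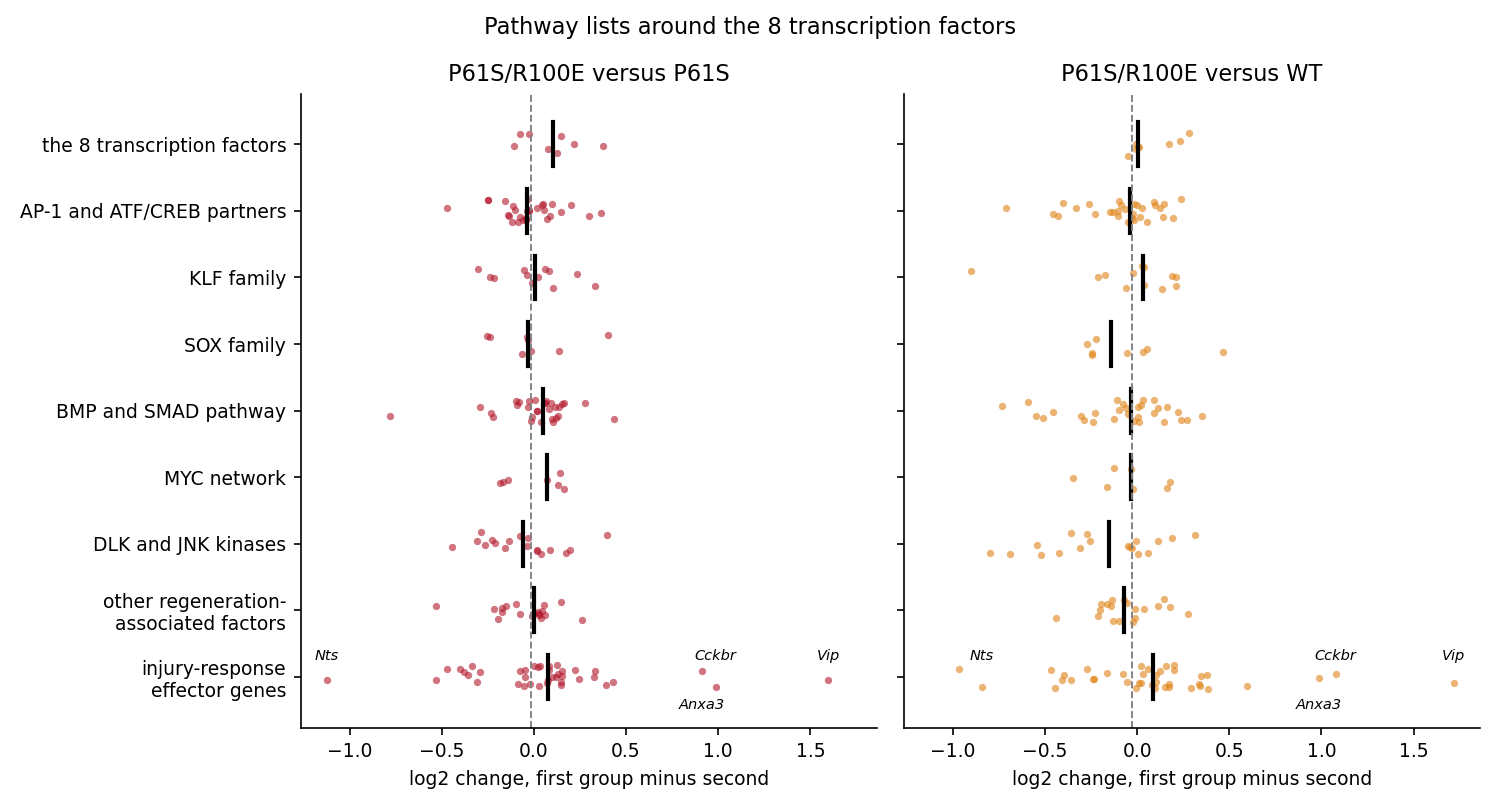
Log2 change of every tested gene of the 8 transcription factors and of 8 pathway lists (1 point per gene, black line at the list's median) for P61S/R100E against P61S and against WT. The dashed line is the median of all tested genes (-0.02 and -0.03), and Vip, Anxa3, Nts and Cckbr of the effector list lie beyond every one of the 8 transcription factors.

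Markers of the cell types in the cultures were measured beside these values, and their part in the results was not tested. All 16 sensory neuron markers on the array were well above background on every array, with a summed signal (in units of the 75th percentile) of 220.5 to 238 with P61S/R100E, 225 to 262 with P61S and 236 to 261 with WT. Of the 16, 14 were below 0 between P61S/R100E and P61S (median -0.08) and 15 between P61S/R100E and WT (median -0.09), where 55.6% and 57.1% of all tested genes were below 0. The first count was 9 without P61S replicate 2 (median -0.004), and the second was 9 without WT replicate 2 (median -0.04). Schwann cell markers (10 genes) summed to 87.3 to 98.0 with P61S/R100E, 83.8 to 89.7 with P61S and 88.6 to 89.1 with WT. Fibroblast markers (8 genes) summed to 154 to 186 with P61S/R100E, 146 to 161 with P61S and 162 with both WT arrays. Of the 8, 7 were above 0 between P61S/R100E and P61S (median 0.11), 6 without P61S replicate 2, and 4 between P61S/R100E and WT. All 8 were below 0 between P61S and WT (median -0.07), and 4 without P61S replicates 1 and 3 (median -0.01). Macrophage markers (11 genes) summed to 6.28 to 7.73 with P61S/R100E, 6.19 to 7.34 with P61S and 6.17 to 6.54 with WT. Single values weigh on these sums. Cd68 read 0.64 on P61S replicate 3, beside -1.21 and -1.28 on P61S replicates 1 and 2. Cx3cr1 read -0.055 on P61S/R100E replicate 3, beside -2.7 and -1.5 on P61S/R100E replicates 1 and 2. Endothelial and mural markers (9 genes) summed to 2.14 to 2.48 with P61S/R100E, 2.12 to 2.27 with P61S and 2.23 to 2.41 with WT. Of 8 tested, 7 were below 0 between P61S/R100E and P61S (median -0.17), 5 without P61S replicate 2 (median -0.08), and 4 between P61S/R100E and WT. Satellite glia markers (7 genes) summed to 41.7 to 50.5 with P61S/R100E, 45.6 to 46.9 with P61S and 43.6 to 50.9 with WT. Of the 7, 6 were below 0 between P61S and WT (median -0.10), 5 without P61S replicate 2 and 4 without WT replicate 2. Between P61S/R100E and P61S, 6 of 10 Schwann cell, 6 of 11 macrophage and 4 of 7 satellite glia markers were above 0. The cell cycle markers, of interest beside Myc, had 8 of 8 genes above 0 between P61S/R100E and P61S (median 0.10) and 8 of 8 below 0 between P61S and WT (median -0.12). Of all tested genes 55.6% were below 0 in each of these comparisons. Both cell cycle counts rested on P61S replicate 2: without it 1 of 8 was above 0 between P61S/R100E and P61S (median -0.04) and 1 of 8 below 0 between P61S and WT (median 0.01). No marker of these lists passed the test over all probes.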

How the data were processed

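RNA of the cultures was measured on 8 one-colour (Cy3) Agilent arrays, and RNA with an integrity number under 8.0 had been discarded, per the labels. The scanner files hold intensity values of each spot that, per the file headers, Feature Extraction 10.7.3.1 (protocol GE1_107_Sep09, array design 028279, design build rn4) had background-subtracted and spatially detrended. The deposited log2 table (22018 probes) was, by comparison with the scanner values, the log2 of these signals with no scaling between arrays; who set its filter is not given in the sources used here. It served as an alternative.

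Here log2 of the signal minus that of the array's 75th percentile was taken, spots of a probe were averaged (outlier spots left out unless all were), and the brightest probe stood for a gene. Probes that were well above background on all arrays of 1 or more groups were tested. Differences were fitted in 1 limma model of 3 group means (limma 3.58.1, R 4.3.3; Python 3.11.15, pandas 2.3.3, numpy 2.4.6, matplotlib 3.10.9), with 4 residual degrees of freedom, 2.10 prior ones and Benjamini-Hochberg adjustment. The design had named 8 separate arrays. After the replicate check it was run on 7 samples, with the 8-array fit as an alternative. For the normexp alternative (offset 50) the median spot signal stood in for the mean, because the files used here hold the median only. The fit was tested on simulated data.

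Alternatives were other background corrections and normalizations, the deposited values, other filters, the replicate number, slide row or slide column in the fit, only the 2 groups compared, another variance model, each sample left out, a looser threshold and the mean of a gene's probes. From each pathway list the text may name the 3 genes with the smallest p whose compared groups do not overlap. The genes, lists and tests were chosen with earlier results of these data known. Probes were matched to genes by RefSeq accession, and promoters are from RefSeq (GRCr8). No probe sequence and no protein sequence was used here. One of the genes with a profile like that of Atf3 is not reported here.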

Additional observations from a re-analysis of the deposited data

How the results depend on the processing

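In every alternative run, limma called 0 of the 8 genes. Between P61S/R100E and P61S the limma unadjusted p of Atf3 and Myc fell on either side of 0.05 by setting. It was 0.0201 and 0.0266 with normexp background correction and quantile normalization, and 0.0731 and 0.0502 with quantile normalization alone. For Myc it was 0.0461 with the deposited values, 0.0453 with probes well above background on all arrays and 0.0642 with no filter. Of 696 log2 differences recomputed over 32 combinations of gene and comparison, 624 kept their sign and 72 did not, and 12 combinations never changed sign. Atf3, Smad1 and Myc kept a positive sign in both the comparison with WT and that with the mean of P61S and WT, and Atf3 and Myc also against P61S. The cause of the sign changes was not tested, and they concern differences within the spread between samples.

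With normexp background correction and quantile normalization the sign turned, to 0.089 for Sox11, 0.031 for Klf6 and -0.080 for Crem between P61S/R100E and WT, to -0.040 for Klf4 and -0.0056 for Crem between P61S and WT, to 0.021 for Sox11 against the mean of P61S and WT. With quantile normalization the sign turned, to -0.021 for Jun, 0.11 for Sox11, 0.0015 for Klf4 and -0.0023 for Crem between P61S/R100E and WT, to -0.00011 for Atf3 between P61S and WT, to 0.027 for Sox11 against the mean of P61S and WT. With arrays centred on the median detected probe the sign turned, to 0.0012 for Klf4 between P61S/R100E and P61S, to 0.072 for Sox11, 0.075 for Klf4 and 0.029 for Klf6 between P61S/R100E and WT, to 0.038 for Klf4 and 0.022 for Crem against the mean of P61S and WT. With the deposited log2 values the sign turned, to 0.0016 for Klf4 between P61S/R100E and WT. With the mean of all probes of a gene the sign turned, to -0.055 for Crem between P61S/R100E and WT, to -0.050 for Crem between P61S and WT. With the 8 arrays as separate samples the sign turned, to 0.010 for Sox11 between P61S/R100E and P61S, to -0.017 for Sox11 between P61S and WT, to 0.0019 for Sox11 against the mean of P61S and WT. With the replicate number as a block over the 8 arrays the sign turned, to 0.010 for Sox11 between P61S/R100E and P61S, to -0.098 for Jun and 0.039 for Sox11 between P61S/R100E and WT, to -0.0026 for Atf3 between P61S and WT, to -0.015 for Jun and 0.025 for Sox11 against the mean of P61S and WT. With slide row as a block the sign turned, to -0.044 for Jun and 0.018 for Sox11 between P61S/R100E and WT, to -0.021 for Jun against the mean of P61S and WT. With slide column as a covariate the sign turned, to -0.067 for Jun and -0.020 for Smad1 between P61S/R100E and P61S, to 0.73 for Sox11 between P61S/R100E and WT, to 0.29 for Jun, -0.033 for Klf4 and 0.11 for Myc between P61S and WT. The same covariate moved Sox11, with its sign kept, to -0.75 between P61S/R100E and P61S and to 1.47 between P61S and WT. WT filled slide column 4 alone, so values of this fit against WT extend a slope from the mutant arrays. The range over samples left out in turn between P61S/R100E and P61S was from -0.049 to 0.31 for Jun, from -0.46 to 0.24 for Sox11 and from -0.11 to 0.057 for Klf4. The range over samples left out in turn between P61S/R100E and WT was from -0.33 to 0.34 for Jun, from -0.21 to 0.20 for Sox11, from -0.034 to 0.025 for Klf4, from -0.12 to 0.013 for Klf6 and from -0.065 to 0.085 for Crem. The range over samples left out in turn between P61S and WT was from -0.061 to 0.082 for Atf3, from -0.46 to 0.22 for Jun, from -0.25 to 0.45 for Sox11 and from -0.061 to 0.11 for Klf4. The range over samples left out in turn against the mean of P61S and WT was from -0.10 to 0.25 for Jun, from -0.23 to 0.12 for Sox11, from -0.058 to 0.027 for Klf4, from -0.056 to 0.076 for Klf6 and from -0.069 to 0.0057 for Crem. Counts of called probes over all 23585 were 1 between P61S/R100E and WT with quantile normalization, with centring on the median and at an adjusted p under 0.10, 1 between P61S and WT with the same normalization and centring, and 1 against the mean of P61S and WT with quantile normalization, a variance trend with robust hyperparameters, or 8 separate arrays. As samples were left out in turn, the counts ran from 0 to 10 between P61S/R100E and P61S, 0 to 34 between P61S/R100E and WT and 0 to 16 between P61S and WT. The highest counts came without WT replicate 1 or without P61S replicates 1 and 3, which leave 1 sample in a group that is assumed to vary like the others.

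The replicate number showed no steady pairing of the samples. Deviations of same-numbered P61S/R100E and P61S arrays correlated at 0.0508, -0.021 and 0.0081. With same-numbered WT arrays the P61S arrays correlated at 0.104 and 0.167, and the P61S/R100E arrays at -0.158 and -0.198. In groups this small, centred on their means, such values cannot decide whether samples were paired. The replicate block changed no call (0 probes called). The 8 arrays as separate samples, the block over them, the omission of both P61S replicates 1 and 3, and the list counts with samples left out were chosen after seeing the data. The 8 genes were well above background on all arrays, but this flag does not show that low signal left them unaffected. Sox11 spots read 294 to 616, and its 2 spots on P61S replicate 2 disagreed (346 and 616).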
